A study of Homo sapiens with 3 samples.

Results

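The inhibitors of DNA binding ID1, ID2, ID3 and ID4, the inhibitory SMADs SMAD6 and SMAD7, the ligands BMP4 and TGFB3 and the secreted BMP antagonist GREM1 were followed in RH30 cells, a human alveolar rhabdomyosarcoma line. All probe sets annotated with exactly 1 of these 9 genes were taken, 16 of the 22277 on the array, which name 11963 genes singly. RNA came from cells given an anti-MYCN peptide nucleic acid (PNA, in which bases hang on a peptide-like backbone) at 10 µM, from cells given a mutated PNA at 10 µM that the submitters describe as inactive, and from untreated cells, each at 12 hours. Each condition was measured on 1 array, all 3 of the same line in serum-containing medium, so there is no replicate error, test or p-value, and all differences are those of 1 array from another. The array titled untreated carries a source name that says mutated PNA. Its title and treatment text are followed here, and every direction relative to untreated cells rests on that label.

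ID proteins have a helix-loop-helix but no basic region. They pair with E proteins such as TCF3, TCF4 and TCF12, and so keep MyoD and other myogenic factors from binding DNA with those partners. BMP ligands bind receptor kinases that phosphorylate SMAD1, SMAD5 and SMAD9, and TGF-beta ligands chiefly act through SMAD2 and SMAD3. Both branches use SMAD4, and ID1 and ID3 are classical BMP targets. SMAD6 and SMAD7 are induced by the pathway and block it at the receptors, and GREM1 captures BMP ligands outside the cell.

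The values are MAS5 signals, linear and scaled to a common trimmed mean per array. Signals under a floor of 23.4 were set to it before log2 was taken, and a gene was compared by its brightest probe set where the mean of that probe set over the arrays reached 117. By these rules 6745 genes were compared. Of the 9 genes followed, 7 passed, and ID4 and SMAD7 did not. The difference between the mutated PNA and untreated arrays is the only measure of background, and its 95% range among genes of like signal is called the control range here.

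All 8 muscle lineage markers examined, MYOD1, MYOG and desmin (DES) among them, passed the filter, and none of the 9 epithelial, leukocyte and endothelial markers on the array did. The summed signal was 24013, 18949 and 20636 in anti-MYCN PNA, mutated PNA and untreated cells for the muscle markers. It was 84.5, 43.5 and 82.1 for the epithelial, 118, 32.4 and 78.4 for the leukocyte, and 98.1, 32.0 and 13.1 for the endothelial markers, in the same order. MYCN, the targeted gene, read 2202 in anti-MYCN PNA cells, 2804 in mutated PNA cells and 3313 in untreated cells. The 24 probe sets for poly-A spikes all read lower in the anti-MYCN PNA hybridisation than in either other one, with median ratios of 0.382 to mutated PNA and 0.410 to untreated. The part of this array difference in the values below was not tested. In RNA of whole cultures, fewer cells with a transcript and less transcript per cell cannot be told apart.

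RefSeq (GRCh38.p14) gives 15 promoter windows for the 9 genes. In the 250 bases before each start, 3 motifs were searched: CACGTG, the E-box form bound by MYC-family dimers, GTCTAGAC, the palindrome bound by SMAD3 and SMAD4, and GGCGCC, a GC-rich SMAD element. Each is its own reverse complement, so both strands were read, and none contains another. A window from each of 5 genes is shown, with matches in capitals: TGFB3, the gene furthest from untreated; GREM1, lowest in anti-MYCN PNA cells; SMAD6, SMAD feedback; BMP4, the BMP ligand; and ID1, of the ID genes past the filter the one furthest from untreated, whose window has no match. The strands are minus for TGFB3 and BMP4 and plus for the others. The positions are chr14:75983012-75983261 for TGFB3, chr15:32717754-32718003 for GREM1, chr15:66701986-66702235 for SMAD6, chr14:53953396-53953645 for BMP4 and chr20:31605039-31605288 for ID1.
TGFB3: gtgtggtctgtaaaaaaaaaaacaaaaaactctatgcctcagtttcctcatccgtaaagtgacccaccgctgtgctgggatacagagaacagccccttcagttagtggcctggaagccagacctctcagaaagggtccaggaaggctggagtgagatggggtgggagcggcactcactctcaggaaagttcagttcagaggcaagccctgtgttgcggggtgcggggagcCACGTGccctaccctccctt
GREM1: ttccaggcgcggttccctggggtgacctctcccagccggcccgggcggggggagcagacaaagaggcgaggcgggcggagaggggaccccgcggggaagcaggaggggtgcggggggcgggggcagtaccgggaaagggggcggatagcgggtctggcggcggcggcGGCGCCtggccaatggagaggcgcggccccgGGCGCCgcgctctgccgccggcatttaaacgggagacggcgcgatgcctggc
SMAD6: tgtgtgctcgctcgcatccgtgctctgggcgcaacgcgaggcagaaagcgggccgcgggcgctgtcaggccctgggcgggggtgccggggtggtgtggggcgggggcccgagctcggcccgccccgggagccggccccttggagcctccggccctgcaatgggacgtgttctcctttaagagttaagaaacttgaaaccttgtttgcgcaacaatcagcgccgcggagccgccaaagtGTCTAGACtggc
BMP4: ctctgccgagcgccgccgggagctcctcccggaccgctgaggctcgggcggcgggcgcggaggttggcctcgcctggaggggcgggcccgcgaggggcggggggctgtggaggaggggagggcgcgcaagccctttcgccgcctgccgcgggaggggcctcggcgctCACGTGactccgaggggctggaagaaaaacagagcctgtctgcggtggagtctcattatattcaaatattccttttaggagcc
ID1: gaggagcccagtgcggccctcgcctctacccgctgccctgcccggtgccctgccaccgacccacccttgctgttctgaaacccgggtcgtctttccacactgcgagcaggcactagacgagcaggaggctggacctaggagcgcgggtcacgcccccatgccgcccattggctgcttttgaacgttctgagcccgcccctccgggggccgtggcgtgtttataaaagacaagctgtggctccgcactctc

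CACGTG begins 20 bases before the start in the TGFB3 window and 83 before it in that of BMP4. TGFB3 has 1 further window and BMP4 has 2, and CACGTG is in none of those. Of all 35116 RefSeq windows of this length, 6.34% hold CACGTG. GTCTAGAC begins 12 bases before the SMAD6 start and is in 0.182% of all windows. GGCGCC occurs 2 times in the GREM1 window, 83 and 52 bases before the start, once in another BMP4 window, and in 16.4% of all windows. The windows of ID1, ID2, ID3, ID4 and SMAD7 hold none of the 3. A match is a description of the letters, and the arrays measured no binding.

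The ID genes with a clear signal differed little between the PNAs, and ID1 was lower on both PNA arrays than in untreated cells. ID1 read 1931 in anti-MYCN PNA cells, 2022 in mutated PNA cells and 2883 in untreated cells. The PNA arrays lay close together and the untreated array stood above both. The log2 difference of anti-MYCN PNA was −0.07 to mutated PNA, so that 89.0% of all genes compared were at least as far apart, and −0.58 to untreated, which 24.1% of genes matched or passed. Mutated PNA minus untreated gave −0.51, a size reached by 6.95% of genes. Against a control range of 0.37 for its signal class, ID1 was beyond it in both comparisons with untreated cells and within it between the PNAs. These comparisons share the untreated array.

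ID3 had signals of 5265 in anti-MYCN PNA cells, 4849.6 in mutated PNA cells and 5478 in untreated cells. The 3 arrays lay within a log2 range of 0.18, inside the control range of 0.28. Its difference between the PNAs was 0.12, or −0.06 when the arrays were scaled to a common median. ID2 read 351 in anti-MYCN PNA cells, 299.8 in mutated PNA cells and 386 in untreated cells, with log2 differences of 0.23 between the PNAs and −0.14 and −0.36 for anti-MYCN PNA and mutated PNA against untreated. All 3 lie within a control range of 0.56. By the brightest probe set of each, the untreated array gave the highest signal for ID1, ID2 and ID3. For ID2 and ID3 this rests on differences within the control range. With median scaling the differences of anti-MYCN PNA from untreated lay further below 0 for all of them. Such scaling multiplies each array by a single factor, so all genes above the floor shift alike. The median over all genes went from 0.06 to −0.14 in that comparison.

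The second ID2 probe set ran differently: it read 45.7 in anti-MYCN PNA cells, 88.2 in mutated PNA cells and 78.6 in untreated cells, under the filter on all 3 arrays. It carries the suffix _x_at, for probes that also match other transcripts, and its direction between the PNAs was opposite to that of the brighter one. ID4, the family member under the filter, had 3 probe sets. The brightest, also an _x_at one, read 35.1 in anti-MYCN PNA cells, 77.3 in mutated PNA cells and 54.5 in untreated cells. The next gave 18.2, 33.8 and 36.7 in that order, and the third 21.4, 19.4 and 6.70, below the floor on every array. The first 2 were lowest in anti-MYCN PNA cells, and the brightest gave a log2 difference of −1.14 to mutated PNA. Among the 5218 genes under the filter 5.39% were at least 2-fold lower in that comparison, and 4.06% were at least as far below as ID4.

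**Figure D1:**
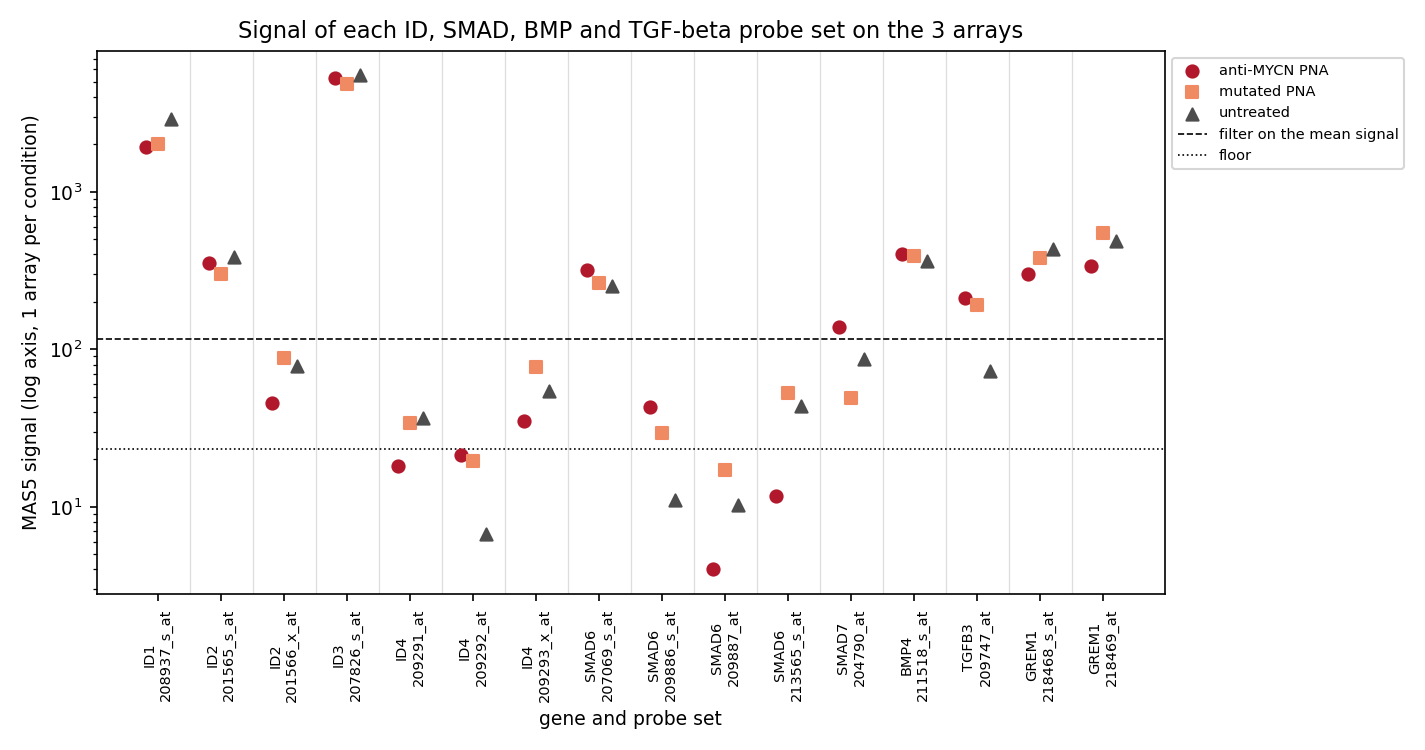
MAS5 signal on a log axis for each of the 16 probe sets, with 1 point per array: anti-MYCN PNA (circles), mutated PNA (squares) and untreated (triangles). The dashed line is the filter on the mean signal at 117 and the dotted line the floor at 23.4; 8 probe sets have a mean above the filter, TGFB3 is low on the untreated array only, and both GREM1 probe sets are lowest on the anti-MYCN PNA array.

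Of the feedback inhibitors, SMAD6 was nearly level across the arrays and SMAD7 was dim. The SMAD6 probe set of highest signal read 319.5 in anti-MYCN PNA cells, 262 in mutated PNA cells and 254 in untreated cells. Anti-MYCN PNA was the highest, by log2 differences of 0.29 and 0.33, within a control range of 0.64, and 56.1% and 49.5% of all genes were at least as far apart. The other 3 SMAD6 probe sets were under the filter and disagreed: one read 42.7, 29.4 and 11.1 in anti-MYCN PNA, mutated PNA and untreated cells, another 11.7, 52.4 and 43.8, and the last 4.0, 17.0 and 10.2.

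SMAD7, which recruits ubiquitin ligases to the TGF-beta receptor, has 1 probe set, with 138 in anti-MYCN PNA cells, 49.2 in mutated PNA cells and 86.6 in untreated cells. Its order was thus anti-MYCN PNA, untreated, mutated PNA, and only the anti-MYCN PNA value exceeded 117. The log2 differences were 1.49 to mutated PNA and 0.68 to untreated for anti-MYCN PNA, and −0.82 for mutated PNA against untreated. Its mean of 91.4 kept it out of the comparison of genes. Among the genes under the filter 14.8% were at least 2-fold higher in anti-MYCN PNA than in mutated PNA cells, and 6.27% were at least as far above mutated PNA as SMAD7.

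TGFB3 was the gene of the 9 furthest from untreated, and both PNA arrays were high. This TGF-beta ligand read 213 in anti-MYCN PNA cells, 190.1 in mutated PNA cells and 72.7 in untreated cells. The PNA arrays differed from each other by 0.16 on the log2 scale (−0.02 with median scaling), and from untreated by 1.55 for anti-MYCN PNA and 1.39 for mutated PNA. Of all genes compared, 0.549% were at least as far apart in anti-MYCN PNA against untreated and 0.193% in mutated PNA against untreated, in comparisons that share the untreated array. The untreated signal lay under 117, so TGFB3 passed the filter only through the PNA arrays and a difference was to be found in any gene that passed this way. Genes of its signal class, the dimmest of 10, had a control range of 0.94.

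BMP4 was the most even of the 9. It read 406 in anti-MYCN PNA cells, 393 in mutated PNA cells and 361 in untreated cells, and its largest log2 difference was 0.17, inside a control range of 0.56. Its direction between the PNAs, 0.05, was −0.13 with median scaling.

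GREM1, which holds BMP2 and BMP4 away from their receptors, was lowest in anti-MYCN PNA cells by both of its probe sets. The brighter one read 340.0 in anti-MYCN PNA cells, 547 in mutated PNA cells and 484 in untreated cells. The other read 299.5 in anti-MYCN PNA cells, 377 in mutated PNA cells and 436 in untreated cells. The anti-MYCN PNA value was below both controls on each, whereas the order of the controls differed between the probe sets. By the brighter one, anti-MYCN PNA differed from mutated PNA by −0.69 and from untreated by −0.51 on the log2 scale, against a control range of 0.5. By the other the differences were −0.33 and −0.54. Its mean signal of 371 lies between those of ID2 (345) and BMP4 (386), which have a control range of 0.56. Both of its differences are within that range. A size of 0.69 between the PNAs was matched or passed by 16.6% of all genes. The −0.51 from untreated only just exceeded the control range, and 29.8% of all genes were at least as far apart.

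**Figure D2:**
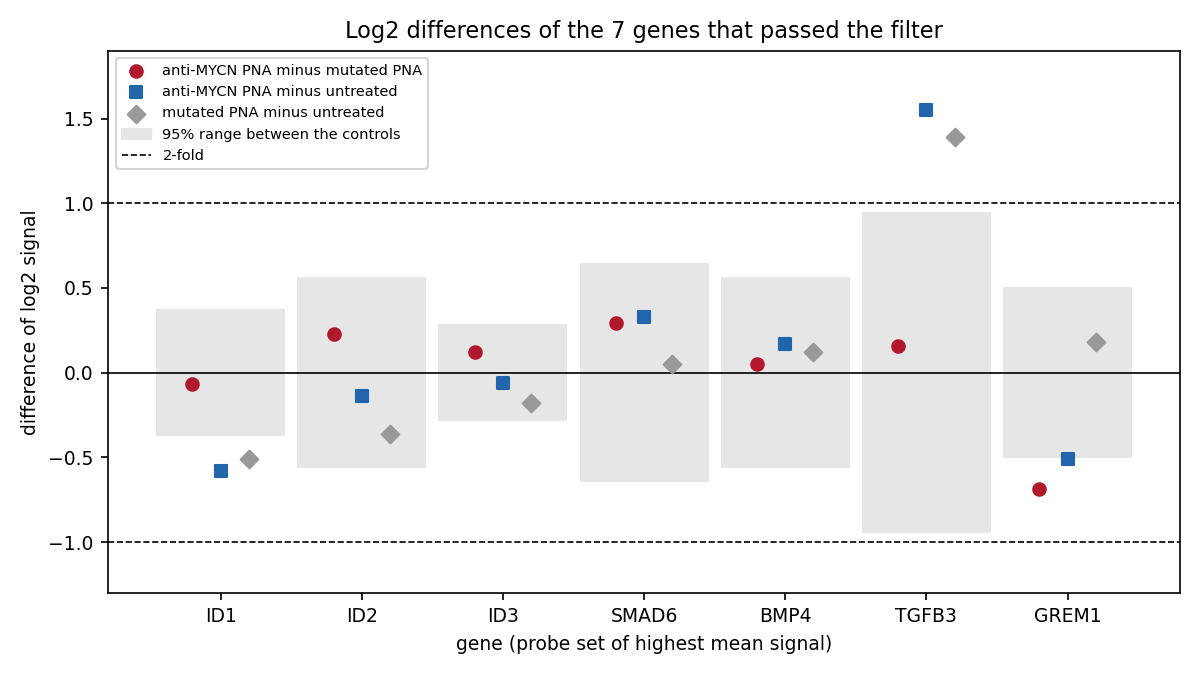
Difference of log2 signal (vertical axis) for the 7 genes that passed the filter, each by its brightest probe set. Circles are anti-MYCN PNA minus mutated PNA, squares anti-MYCN PNA minus untreated and diamonds mutated PNA minus untreated, 1 array per condition. Grey boxes are the 95% range of the difference between the controls among genes of like signal and dashed lines mark 2-fold. TGFB3, which passed the filter only through the PNA arrays, lies past 2-fold against untreated, at 1.55 and 1.39. GREM1 is the one outside its box between the PNAs, at −0.69.

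Counted over the 7 genes that passed, none was at least 2-fold higher or lower in anti-MYCN PNA than in mutated PNA cells, where 2.70% of all genes were higher and 2.33% lower. At 1.5-fold GREM1 was the single gene lower, where 10.7% of all genes were, and none was higher, where 13.1% were. Against untreated, TGFB3 was the single gene at least 2-fold higher in anti-MYCN PNA cells, beside 3.07% of all genes, and none was lower, beside 2.31%. At 1.5-fold these counts were the same, beside 13.1% of all genes higher and 10.4% lower. In mutated PNA against untreated cells TGFB3 was again the one gene higher, beside 0.371% of all genes, and none was lower, with the same 0.371% as background. At 1.5-fold it was again TGFB3 alone, beside 2.40% higher and 2.27% lower of all genes. The median log2 difference of the 7 was 0.12, −0.06 and 0.05 in these comparisons, against 0.06, 0.06 and 0.0 over all genes. Beyond the control range in either direction was GREM1 between the PNAs, where 31.1% of all genes were. In anti-MYCN PNA against untreated these were ID1, TGFB3 and GREM1, where 30.2% were. For GREM1 this holds by its brighter probe set only. In mutated PNA against untreated these were ID1 and TGFB3, beside 5.04% of all genes, which the definition of the range sets. With 7 genes, 1 gene already exceeds each of the 2-fold background shares. TGFB3 passed the filter only through the PNA arrays, so a higher PNA value was fixed by the filter, though not its size. The shares are of genes of all signals, whereas TGFB3 is in the dimmest class, with a control range of 0.94.

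By a rule on the widest range over the arrays, TGFB3 and SMAD7 were matched with the genes nearest in the pair of log2 differences to untreated, over 3 arrays. Nearest to TGFB3 were PADI1, SPN, CASZ1, KIF1C and EDA, at distances of 0.12 to 0.37. PADI1 read 235 in anti-MYCN PNA cells, 228 in mutated PNA cells and 80.3 in untreated cells. The untreated signals of these neighbours, 60.7 to 104, all lay under 117, as with TGFB3. They passed the filter only through the PNA arrays, so a higher PNA value was fixed by the filter. Nearest to SMAD7 were MAGEH1, AATK, HLA-G, EXTL1 and TK2, at distances of 0.05 to 0.11, with MAGEH1 at 395, 143 and 244 in anti-MYCN PNA, mutated PNA and untreated cells. The mutated PNA signals of HLA-G, EXTL1 and TK2, at 65.3, 75.9 and 76.2, lay under 117. A lower mutated PNA value was therefore fixed by the filter in these genes. With 3 arrays any pattern has such neighbours. HLA-G and SPN were measured by _x_at probe sets.

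The rest of the pathway was read from a list of 76 genes by role, 72 of which had a probe set naming them alone and 50 of which passed the filter. Of the 50, 4 were at least 2-fold higher in anti-MYCN PNA than in mutated PNA cells and 1 was lower, where 2.70% of all genes were higher and 2.33% lower. Against untreated 3 were higher in anti-MYCN PNA cells and none was lower, beside 3.07% and 2.31% of all genes. In mutated PNA against untreated 1 was higher and 1 lower, beside 0.371% of all genes each way. The median log2 differences were 0.15, 0.1 and −0.06, beside 0.06, 0.06 and 0.0 over all genes. With median scaling the median over all genes moved to −0.12 and −0.14 in the comparisons of anti-MYCN PNA with mutated PNA and untreated, and that of the list to −0.05 and −0.14.

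Among 7 ligands compared, the medians were −0.02, 0.01 and 0.05 in anti-MYCN PNA against mutated PNA, anti-MYCN PNA against untreated and mutated PNA against untreated. GDF15, a stress-induced ligand, read 638 in anti-MYCN PNA cells, 272 in mutated PNA cells and 395 in untreated cells, by an _x_at probe set, and was 1.23 above mutated PNA on the log2 scale. Myostatin (MSTN), which limits muscle growth, read 907 in anti-MYCN PNA cells, 1953 in mutated PNA cells and 915 in untreated cells. Only the mutated PNA array was high for MSTN, with log2 differences of −1.11 for anti-MYCN PNA against it and 1.09 for it against untreated.

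The 8 receptors compared had medians of 0.16, 0.14 and 0.09 in the same order. Endoglin (ENG), a co-receptor for BMP and TGF-beta ligands best known from endothelium, read 458 in anti-MYCN PNA cells, 196 in mutated PNA cells and 205 in untreated cells, 1.23 and 1.16 above the controls on the log2 scale. The endothelial markers PECAM1, CDH5 and VWF read 75.3, 3.80 and 19.0 on the anti-MYCN PNA array, all under the filter. The PECAM1 value was above the 8.30 and 3.60 of mutated PNA and untreated cells, and its part in the ENG signal was not tested. Of the 5 SMAD transducers compared, none was 2-fold apart. SMAD4, the shared partner, read 878 in anti-MYCN PNA cells, 1392 in mutated PNA cells and 1313 in untreated cells, with log2 differences of −0.66 and −0.58. SMAD3 was 0.41 above mutated PNA and SMAD5 differed from it by −0.31.

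The 6 secreted antagonists and latency proteins compared had medians of 0.31, 0.45 and 0.24. FSTL3, a follistatin-like protein that binds activins and myostatin, read 263 in anti-MYCN PNA cells, 156 in mutated PNA cells and 109 in untreated cells. The BMP antagonist CHRDL1 read 192 in anti-MYCN PNA cells, 159.9 in mutated PNA cells and 88.4 in untreated cells. In both, anti-MYCN PNA was highest and untreated lowest, and the differences of anti-MYCN PNA from untreated were 1.27 and 1.12. Their untreated signals lay under the filter, as with TGFB3. Among the 10 repressors within the cell or its membrane, with medians of 0.19, 0.16 and −0.11, PMEPA1 was at least 2-fold higher in anti-MYCN PNA than in mutated PNA cells. PMEPA1, which keeps receptor SMADs from being activated, read 220.5 in anti-MYCN PNA cells, 94.3 in mutated PNA cells and 157 in untreated cells. Its mutated PNA signal lay under the filter, so PMEPA1 passed only through the other arrays. A lower mutated PNA value was therefore fixed by the filter, though not its size. The order of arrays for PMEPA1 was that of SMAD7, and also that of other listed genes, GDF15 and CDKN1A among them.

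The 8 genes known as transcriptional targets of the pathway that passed the filter read lower with mutated PNA than without treatment, where 49.8% of all genes were below 0. Their log2 differences ran from −1.12 to −0.13, with a median of −0.4, and 5 of the 8 lay within their control range. Of 5 listed targets under the filter, 2 were below 0 (TGFBI at −1.33 and MSX2 at −0.06), 2 above it (COL1A2 at 0.99 and RUNX2 at 0.47) and 1 at 0. The untreated RUNX2 signal of 6.40 was set to the floor. In anti-MYCN PNA the median was 0.35 against mutated PNA and −0.14 against untreated. CCN2, the connective tissue growth factor, read 98.7 in anti-MYCN PNA cells, 81.5 in mutated PNA cells and 177 in untreated cells. With a mean of 119 it passed the filter only through the untreated array, so a lower PNA value was fixed by the filter. Without CCN2 the medians of the other 7 were 0.42, 0.05 and −0.36 in anti-MYCN PNA against mutated PNA, anti-MYCN PNA against untreated and mutated PNA against untreated. The CDK inhibitor CDKN1A read 1456 in anti-MYCN PNA cells, 695 in mutated PNA cells and 1082 in untreated cells, and was 1.07 above mutated PNA. Several of these genes also answer to other signals, so the list is not specific to SMADs.

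The 6 partners of the ID proteins and myogenic factors compared had medians of −0.33, −0.08 and 0.01, with none 2-fold apart. TCF4, an E protein, read 709 in anti-MYCN PNA cells, 1184 in mutated PNA cells and 1086 in untreated cells. TCF12 read 1186 in anti-MYCN PNA cells, 1778 in mutated PNA cells and 2114 in untreated cells. Anti-MYCN PNA was the lowest in both, by −0.74 and −0.58 against mutated PNA. TCF3 lay the other way at 0.22. RB1, the retinoblastoma protein that ID2 can bind, was at −0.39. MYOD1, the factor ID proteins hold back, was chosen outside the naming rule and read 7834 in anti-MYCN PNA cells, 6266 in mutated PNA cells and 6715 in untreated cells. Its log2 differences of 0.32 and 0.22 stand beside a control range of 0.28. MYOG, likewise chosen, read 1024, 1238 and 748 in the same order. Its log2 differences from untreated were 0.45 for anti-MYCN PNA and 0.73 for mutated PNA, both beyond a control range of 0.42. Between the PNAs it was at −0.27, within that range.

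**Figure D3:**
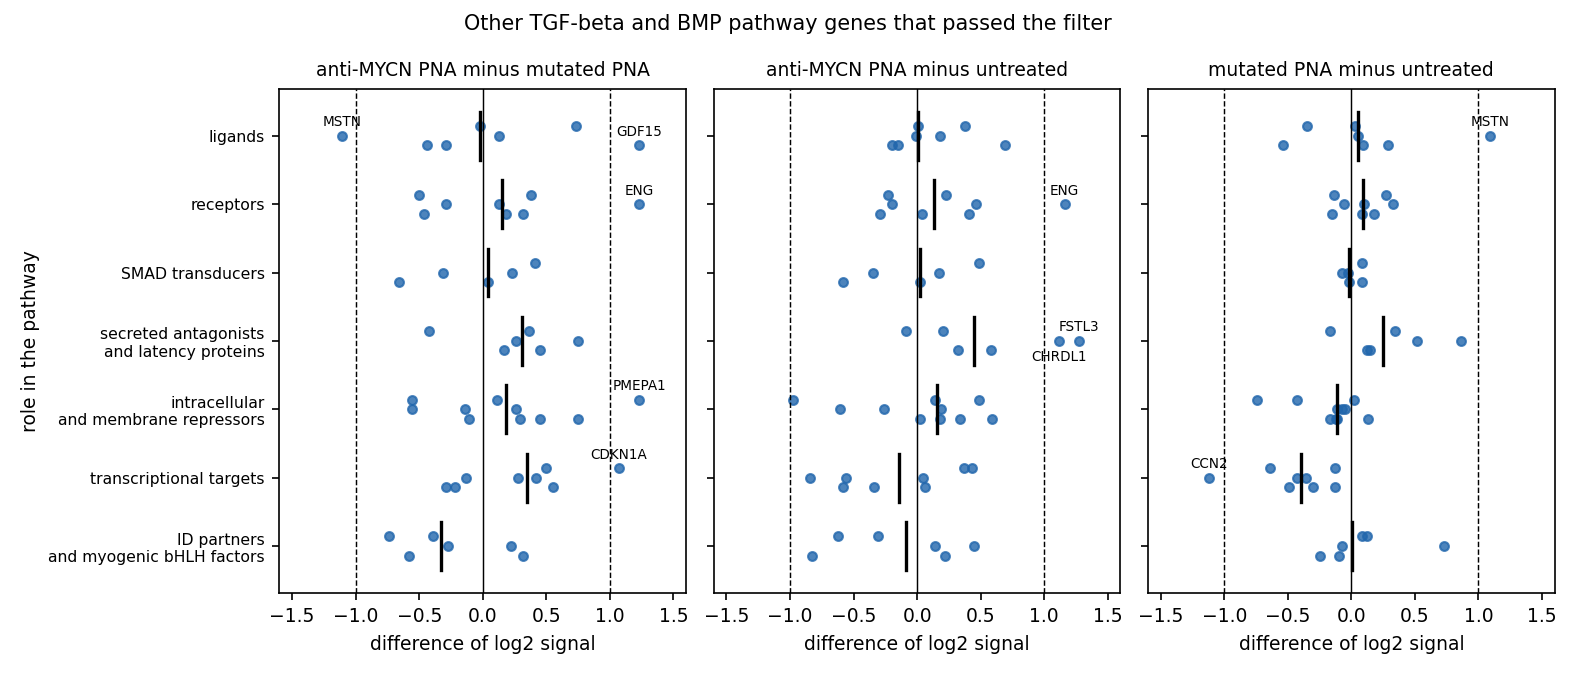
Difference of log2 signal (horizontal axis) for the 50 other pathway genes that passed the filter, by role (vertical axis), in the 3 comparisons. Points are genes, black bars the median of a role, dashed lines 2-fold, and genes past 2-fold are named; the 8 transcriptional targets shown lie below 0 in mutated PNA minus untreated, CCN2 having passed the filter only through the untreated array, and ENG is the one named gene past 2-fold in both comparisons of anti-MYCN PNA.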

How the data were processed

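Total RNA of RH30 cells was labelled with biotin and hybridised to Affymetrix expression arrays, 1 per condition. The authors deposited 1 signal intensity per probe set on a linear scale. The submitters' processing notes name MAS5 and GCOS as the tools. MAS5 scales each array by 1 factor: every array had a 2% trimmed mean of 500.2, and the median gene signal was 127, 112 and 111 for anti-MYCN PNA, mutated PNA and untreated cells. Scanner files and detection calls were not used here.

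Of 22215 gene probe sets, 19064 name 1 gene in GEO's platform annotation, 1043 several and 2108 none. Symbols were updated through Entrez identifiers in the RefSeq table of GRCh38.p14, which matched 19052. Arrays were scaled to one trimmed mean, the floor was the pooled 25th percentile (23.4) and the filter the pooled 50th percentile (117). The control range is the 95% range of the absolute control difference in 10 signal classes. The calling step was tested on simulated data. Alternatives covered scaling, floor, filter, fold threshold and choice of probe sets.

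The members and lists were chosen with earlier results of these data known. Genes named are all members, the list genes 2-fold apart in any comparison or else the 3 furthest between the PNAs in each role, MYCN, and the nearest patterns. TCF3, MYOD1, MYOG, COL1A2, RUNX2, TGFBI and MSX2 were named after their values were seen. Python 3.11.15, numpy 2.4.6, pandas 2.3.3 and matplotlib 3.10.9 were used. The number of arrays limits the precision.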

Additional observations from a re-analysis of the deposited data

How the results depend on the processing

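No paired analysis was possible because each condition has 1 array. The number of followed genes at least 2-fold apart between anti-MYCN PNA and mutated PNA, 0 of 7, was 2 of 9 without a filter, from SMAD7 (higher) and ID4 (lower), and 1 of 7 at a 1.5-fold threshold, from GREM1. The single gene against untreated, TGFB3, was lost (0 genes) at a 3-fold threshold and with the filter at the 75th percentile, for anti-MYCN PNA and for mutated PNA alike; the stricter filter left 2 of the 9 genes. The pathway list's median for anti-MYCN PNA minus mutated PNA, 0.15, was −0.05 with median scaling, −0.04 with the filter at the 75th percentile (24 genes) and 0.04 without _x_at and _s_at probe sets (28 genes). Against untreated it was −0.14 with median scaling in place of 0.1, and for mutated PNA minus untreated 0.07 without those probe sets in place of −0.06. Median scaling also moved the median over all genes, from 0.06 to −0.12 against mutated PNA and to −0.14 against untreated, for anti-MYCN PNA. The cause of the other shifts was not tested. All of 153 alternative log2 differences of followed genes stayed within the control range of the main value. Many could not move, so the count is no measure of stability. The deposited signals already shared a trimmed mean, and no compared signal of these genes lay under either floor. The median over probe sets changed GREM1 alone, and quantile scaling, median scaling and the pseudocount gave the other shifts. Of the 153, 5 took the other sign, from differences of at most 0.18 in size. Alternatives added after seeing the data kept SMAD7 between 1.16 and 1.49 and ID4 between −1.46 and −0.78 for anti-MYCN PNA minus mutated PNA. Dim signals limit both.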

Other observations

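ID2B, a separate gene in the annotation and outside those followed, had a probe set of its own that read 55.1 in anti-MYCN PNA cells, 2.20 in mutated PNA cells and 22.0 in untreated cells. A probe set annotated with both ID2B and ID2 read 7.90, 27.5 and 15.1 in the same order. Both were under the filter on all 3 arrays, and their directions between the PNAs were opposite.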
